A study of Mus musculus with 45 samples.

Results

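The genes of activin signalling examined here encode the inhibin and activin subunits (Inhba, Inhbb and Inha), the type I receptors (Acvr1, Acvr1b and Acvr1c), the type II receptors (Acvr2a and Acvr2b) and the secreted antagonists follistatin and follistatin-like 3 (Fst and Fstl3). They were taken by gene symbol, by a rule that holds no measured value although it was set with earlier results of these data known, and make up 10 of the 54532 genes in the count table. RNA was sequenced from hippocampal primary neurons of newborn C57BL/6N mice, treated on day 10 or 11 in vitro (day 11 by the paper's sequencing methods). There was 1 library for each of 9 conditions from each of 5 culture preparations (numbered 1, 3, 6, 7 and 8). All cultures had received AraC, which limits the division of glial cells. Control cultures were untreated, and others received bicuculline (Bic, 50 µM), which blocks GABA type A receptors and so evokes action potential (AP) firing, for 0.5, 1 or 2 h. In the short protocol (SP), 0.5 h of Bic came before 0.5 h in which tetrodotoxin (TTX, 1 µM), the sodium channel blocker that stops AP firing, or TTX together with NMDA (30 µM), an agonist of NMDA receptors, was present besides Bic. In the long protocol (LP), 1 h of Bic preceded 1 h with Bic and TTX, with Bic, TTX and NMDA, or with Bic and TBOA (50 µM), which blocks glutamate uptake. Setting TTX against Bic alone for an equal time in all measures the passive effect of silencing, setting TTX/NMDA against TTX the active effect of NMDA receptor stimulation, and setting TBOA against 2 h Bic glutamate spillover. NMDA was applied to the bath, and which cells and receptor sites it reached was not measured here. The paper ascribes its toxic signalling to extrasynaptic NMDA receptors.

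Activins are dimers of β subunits, βA from Inhba and βB from Inhbb, and an α subunit from Inha instead of a β partner turns the dimer into an inhibin, which opposes activin at its receptors. The ligand binds a type II receptor, which phosphorylates a type I receptor, and this in turn phosphorylates the transcription factors Smad2 and Smad3, which enter the nucleus with Smad4. Follistatin and follistatin-like 3 bind activin outside the cell and keep it from its receptors. Inhba is known in the hippocampus as a gene induced by synaptic activity, and its product activin A as a factor that protects neurons from excitotoxic injury.

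The promoters of both β-subunit genes are shown because these genes moved in opposite directions when neurons fired. Each run is the 250 bases before the RefSeq transcription start in the build GRCm38.p6, read 5′ to 3′ on the gene's own strand, with any TATAAA motif in capitals. The Inhba window is chr13:16011601-16011850 on the plus strand and the Inhbb window chr1:119422249-119422498 on the minus strand.
Inhba: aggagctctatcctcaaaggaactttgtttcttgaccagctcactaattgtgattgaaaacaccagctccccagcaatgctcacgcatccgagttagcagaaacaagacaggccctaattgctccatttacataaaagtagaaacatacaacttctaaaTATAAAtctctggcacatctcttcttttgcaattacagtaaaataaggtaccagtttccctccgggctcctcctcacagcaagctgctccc
Inhbb: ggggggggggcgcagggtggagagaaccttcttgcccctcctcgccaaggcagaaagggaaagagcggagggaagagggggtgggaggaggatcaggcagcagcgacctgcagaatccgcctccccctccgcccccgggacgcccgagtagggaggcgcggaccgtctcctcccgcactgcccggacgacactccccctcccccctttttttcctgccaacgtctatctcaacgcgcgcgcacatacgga
The Inhba window held a TATAAA that begins 91 bases before the start, 43.2% G or C and 3 CG dinucleotides, and the Inhbb window held no TATAAA, 68.0% G or C and 21 CG. Of the other member windows, that of Fstl3 held a TATAAA, 29 bases before the start. TATAAA on either strand occurred in 12.4% of the 32851 promoter windows of the table. The windows of the other members lay between 49.6% and 85.6% G or C, against a median of 52.4% over all windows. Windows were given for 9 of the 10 members (2 for Acvr1c, and none for Fst). Letters bound by activity-regulated transcription factors were searched on both strands, namely the cAMP response element TGACGTCA, its 5-base half-site TGACG, the AP-1 site TGANTCA and the CArG box of serum response factor. The half-site is contained in the full element. None of the 10 member windows held any of them, while 1.55%, 17.8%, 6.75% and 1.47% of all windows did. This describes the letters of these windows alone.

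Levels are given in CPM (read counts scaled to library size, with TMM normalization), and levels of different genes are compared only as CPM per kb of exon. In the control, Acvr1b was the most abundant member at 30.8 CPM per kb, followed by Acvr2a at 21.2, Inha at 15.6, Acvr1 at 11.6 and Inhbb at 7.38 CPM per kb. Below these came Fst at 2.18, Inhba at 1.21, Acvr2b at 0.807, Acvr1c at 0.683 and Fstl3 at 0.544 CPM per kb. The libraries of neighbours in this order did not overlap, except between Acvr2b and Acvr1c and between Acvr1c and Fstl3. Receptor mRNA of the unstimulated neurons was thus mostly Acvr1b and Acvr2a, and the ligand mRNA mostly Inha and Inhbb. The order changed most at Inhba, which stood at 7.43 CPM per kb after 2 h Bic, above Inhbb (4.995 CPM per kb), although libraries of the pair overlapped there. Counts of single libraries ran from 90 to 2847 reads for Inhba and up to 10415 for Acvr1b, but from 17 to 259 for Acvr2b and from 6 to 85 for Fstl3, so that the last 2 were measured least precisely.

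The libraries held between 11316580 and 81129276 counts (median 26239614). The neuronal label was checked with 8 neuronal markers, which summed to 6437 to 8558 CPM in every library, against 883 to 1928 CPM for 7 astrocyte markers, 99.0 to 309 CPM for 6 markers of the oligodendrocyte lineage and 60.8 to 220 CPM for 6 of fibroblasts and mural cells. Microglial (6 markers) and endothelial markers (5) summed to at most 8.76 and 6.77 CPM, and Cldn5 was at 0 in 27 and P2ry12 in 6 of the 45 libraries. The marker sums moved with the LP TTX/NMDA condition, in which the median was 6846 CPM for neurons and 1369 CPM for astrocytes, against 8079 and 1109 CPM with LP TTX. The medians for fibroblasts and mural cells were 215 and 117 CPM and those for the oligodendrocyte lineage 245 and 153 CPM. In such bulk samples, fewer cells of a type and less RNA per cell cannot be told apart.

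Inhba (chromosome 13, 16011851 to 16031621, plus strand, GRCm38) was induced late by AP firing. In the control it stood at 8.18, 7.20, 7.38, 7.74 and 8.17 CPM in preparations 1, 3, 6, 7 and 8. After 0.5 h Bic it stood at 7.20, 7.26, 9.43, 7.48 and 7.11 CPM, which overlapped the control. After 1 h Bic the values were 9.81, 10.3, 11.3, 11.9 and 8.70 CPM, all above the control libraries. After 2 h Bic they were 48.0, 38.98, 50.7, 50.7 and 48.8 CPM, and the lowest of them lay far above the highest library of the earlier times. The increase from the control was 6.11-fold after 2 h (log2 fold change 2.61 ± 0.09 SE, edgeR adjusted p = 1.1e-21) and 35.1% after 1 h (0.43 ± 0.11, adjusted p = 0.040). The call at 1 h was lost without preparation 1, 3, 6 or 7 and in a fit over all 45 libraries. After 0.5 h the log2 fold change was −0.0047, with a 95% interval from −0.26 to 0.25. Between 1 and 2 h alone the level rose 4.51-fold (adjusted p = 9.3e-19).

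Inhbb (chromosome 1, 119415465 to 119422248, minus strand), the gene of the other β subunit, went the opposite way. It stood at 28.8, 27.8, 33.9, 36.6 and 29.9 CPM in preparations 1, 3, 6, 7 and 8 of the control and at 20.3, 24.2, 27.9, 18.8 and 15.1 CPM after 2 h Bic. Only preparation 6 reached into the range of the control after 2 h, and the level was lower in 5 of 5 preparations. It fell by 32.9% (log2 fold change −0.58 ± 0.11, adjusted p = 3.8e-04), and between 1 and 2 h alone the log2 fold change was −0.42 ± 0.11 (adjusted p = 0.00955). Inha (chromosome 1, 75507077 to 75510366, plus strand), the α subunit, rose by 22.4% from 23.03 ± 1.12 to 28.3 ± 2.48 CPM (SD, n = 5), with no overlap between the libraries of the control and of 2 h Bic. Its log2 fold change was 0.29 ± 0.08 (adjusted p = 0.0201), and without preparation 6 or 8 it did not pass the test.

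**Figure D1:**
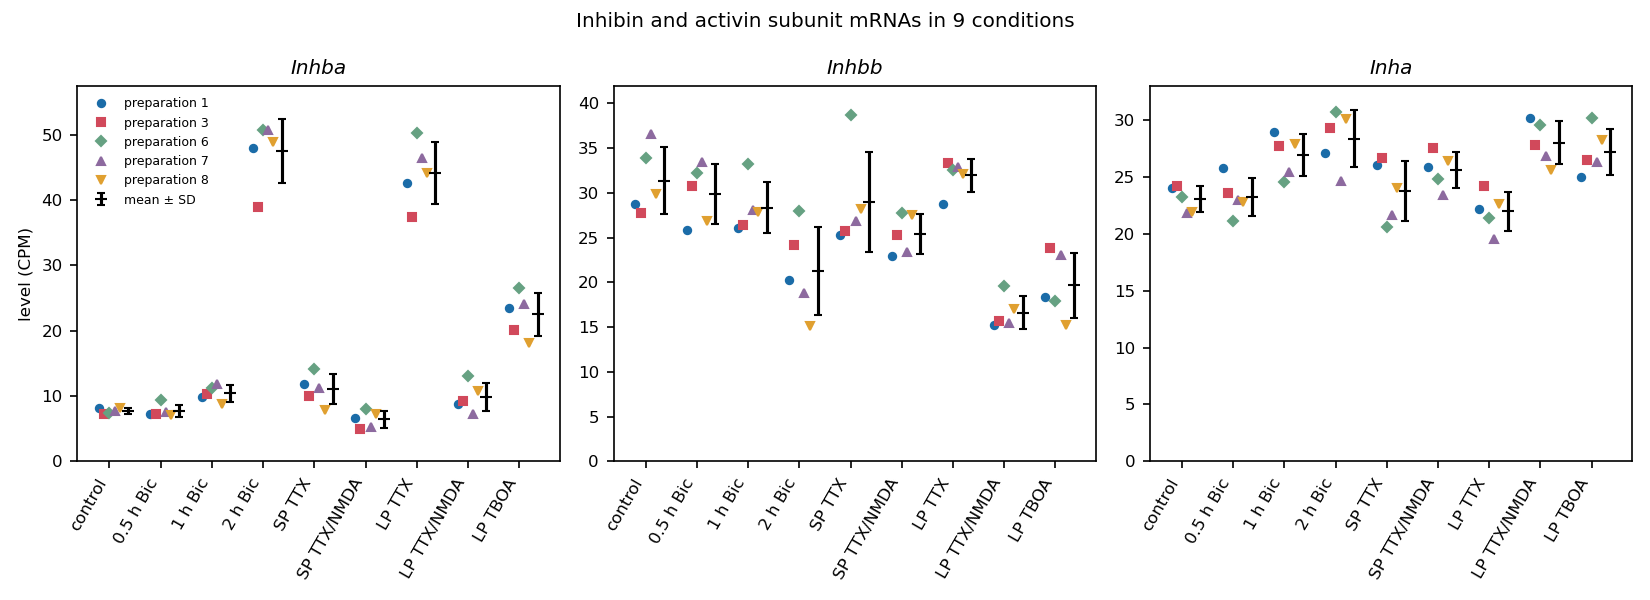
Levels of the 3 subunit genes in CPM (vertical axis) in each of the 9 conditions (horizontal axis), with 1 point for each of 5 culture preparations and the mean ± SD beside them. Inhba stands at 38.98 to 50.7 CPM after 2 h Bic and at 37.4 to 50.2 CPM with LP TTX, but at 7.24 to 13.01 CPM with LP TTX/NMDA, while Inhbb is lowest with LP TTX/NMDA.

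Within each library, the ratio of Inhba to Inhbb mRNA per kb of exon turned from 0.166 ± 0.022 in the control to 1.56 ± 0.437 after 2 h Bic (SD, n = 5). The control libraries lay between 0.141 and 0.190, and the 2 h libraries between 1.07 and 2.15. The log2 ratio rose by 3.19 ± 0.42 (SD) and in 5 of 5 preparations (exact two-sided sign-flip permutation test, p = 0.0625, adjusted p = 0.0938 over 15 such tests). With 5 preparations, 0.0625 is the smallest p this test can give. The βA gene was thus the minor β-subunit mRNA of resting cultures, and exceeded the βB gene per kb in each of the 5 libraries after 2 h of firing. The ratio of Inhba to Fst, its antagonist, went from 0.590 ± 0.168 to 2.86 ± 0.525 per kb and rose in 5 of 5 preparations (p = 0.0625 in the same exact permutation test).

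In all, 3 members were called higher and 1 lower after 2 h Bic, where 9.02% of all genes tested and 18.6% of the 13592 genes with a mean of at least 1 CPM were called. The median log2 fold change of the members was −0.12, against −0.01 over all genes. With the preparation as a block over genes kept by filterByExpr of edgeR (called the paired fit below), 7 members were called, 3 higher and 4 lower, where 29.3% of all genes were. After 1 h Bic only Inhba was called, where 1.16% of all genes were, and after 0.5 h none of the members was, where 0.289% were. For 0.5 h, 0 members had an unadjusted edgeR p under 0.05 and DESeq2 called 0. From 0.5 to 1 h, again only Inhba was called (0.677% of all genes), with an adjusted p of 0.0489 that did not pass without preparation 1, 3 or 7. From 1 to 2 h, Inhba was higher and Inhbb, Acvr2b and Fstl3 were lower (5.33% of all genes were called). These comparisons share libraries and are not independent of each other.

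Inhba reached almost the same level with LP TTX as with uninterrupted Bic. TTX was added after 1 h of Bic, when Inhba stood at 10.4 ± 1.25 CPM (SD, n = 5), and every LP TTX library lay far above that level. In what follows, "rose" and "fell" compare groups of libraries taken at the end of treatment, not times within a culture. With LP TTX, Inhba stood at 42.5, 37.4, 50.2, 46.4 and 44.1 CPM in preparations 1, 3, 6, 7 and 8, which overlapped 2 h Bic. Against uninterrupted Bic, the level was lower in 5 of 5 preparations and decreased by 6.97% ± 4.25 (SD), and the log2 fold change of −0.12 ± 0.08 did not pass the test (adjusted p = 0.533). In the paired fit this small difference passed it (adjusted p = 0.0435). Of the rise above the control, 91.6% ± 5.10 (SD, n = 5 preparations) was present with LP TTX, between 86.4% and 98.8%. In the SP, Inhba was 11.0 ± 2.31 CPM with TTX and 10.4 ± 1.25 CPM after 1 h Bic (log2 fold change 0.08 ± 0.12, adjusted p = 0.967).

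Inhbb and Inha differed from uninterrupted Bic with LP TTX, and stood near their control levels. At the time TTX was added, Inhbb was still at 28.4 ± 2.89 CPM, against 31.4 ± 3.70 CPM in the control, and Inha was at 26.9 ± 1.84 CPM. Inhbb was 28.8, 33.4, 32.6, 32.9 and 32.1 CPM with LP TTX, each above every library of 2 h Bic, with a level 49.1% higher (log2 fold change 0.58 ± 0.10, adjusted p = 3.0e-04). Inha was 22.2, 24.2, 21.3, 19.5 and 22.6 CPM, each below every library of 2 h Bic, and fell by 0.38 ± 0.08 on the log2 scale (adjusted p = 0.00212). These were the 2 members called for the passive effect of the LP, where 4.65% of all genes were called. The paired fit called 5, Inhba lower and Acvr1c and Acvr2a higher besides (32% of all genes). In the SP, edgeR and DESeq2 called none of the 10 members (0.268% of all genes), and 2 (Inha and Fstl3) had an unadjusted p under 0.05. The passive effects of LP and SP were not shown to differ for any member by edgeR or DESeq2, where 0.256% of all genes were called. Inhbb was the 1 member with an unadjusted p under 0.05, with a difference between the effects of 0.54 ± 0.15 on the log2 scale (adjusted p = 0.219), which passed in the paired fit (adjusted p = 0.0169), where it was the only member called and 2.01% of all genes were.

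With NMDA added together with TTX, Inhba stood near its level of 1 h Bic, the time of addition (9.82 ± 2.18 against 10.4 ± 1.25 CPM), and did not reach the level found with TTX alone. With LP TTX/NMDA it stood at 8.84, 9.28, 13.01, 7.24 and 10.7 CPM in preparations 1, 3, 6, 7 and 8, and the highest of these lay far below the lowest LP TTX library (37.4 CPM). Relative to LP TTX it fell by 78.1% (log2 fold change −2.19 ± 0.11, adjusted p = 5.0e-15). Of the rise above the control at 2 h Bic, 5.27% ± 5.41 (SD, n = 5) was present, and the range over preparations, −1.17% to 13.002%, included 0. Against the control itself, Inhba was higher in 4 of 5 preparations, with a log2 fold change of 0.33 ± 0.13 that did not pass the test (adjusted p = 0.0735) and passed it in the paired fit (adjusted p = 0.0440). In the SP, in which Inhba had barely risen, it was 6.66, 4.91, 8.05, 5.32 and 7.25 CPM with TTX/NMDA and 11.8, 10.02, 14.2, 11.3 and 7.90 CPM with TTX. The SP libraries overlapped through preparation 8 of TTX and preparation 6 of TTX/NMDA, and the level fell by 42.1% (log2 fold change −0.79 ± 0.14, adjusted p = 2.2e-04). The active effect was larger in the LP than in the SP, with a difference of −1.39 ± 0.19 on the log2 scale (interaction test, adjusted p = 6.6e-06).

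The βB gene fell as well, and the α-subunit gene rose. With LP TTX/NMDA, Inhbb was 15.3, 15.7, 19.6, 15.5 and 17.1 CPM, each below every library of LP TTX and of the control, and it fell by 48.6% from LP TTX (log2 fold change −0.96 ± 0.08, adjusted p = 5.2e-10) and fell by 0.94 ± 0.10 on the log2 scale from the control. Inha was 30.2, 27.7, 29.5, 26.9 and 25.6 CPM, each above every library of LP TTX (log2 fold change 0.34 ± 0.08, adjusted p = 0.00176). Both β-subunit mRNAs were thus lower with NMDA than without it, and the α-subunit mRNA was near its level of 2 h Bic (28.3 ± 2.48 CPM against 27.98 ± 1.87 CPM). Because Inhba fell further than Inhbb, their ratio per kb was 0.390 ± 0.0494 with LP TTX/NMDA and 0.921 ± 0.107 with LP TTX. The log2 ratio fell by 1.24 ± 0.25 (SD) and in 5 of 5 preparations, and remained above the control in 5 of 5 (p = 0.0625 in each exact permutation test).

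Of the 10 members, 8 were called for the active effect in the LP, 2 higher and 6 lower. This comparison was the broadest of the study, with 23.3% of all genes tested and 46.9% of the genes of at least 1 CPM called, so that a call alone says little here. The median log2 fold change of the members was −0.35, against 0.11 over all genes tested and −0.01 over genes of at least 1 CPM. The paired fit called 9 of the 10, where 62.1% of all genes were called. In the SP, 1 member was higher and 3 were lower (4.28% of all genes). The difference between the active effects of LP and SP was called for 4 members, all with lower values in the LP, where 2.57% of all genes were called. The paired fit called Acvr1b lower in the LP as well (adjusted p = 0.00436). The neuronal marker sum was lower and the glial and fibroblast sums higher with LP TTX/NMDA (the medians given above), and their part in these calls was not tested.

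**Figure D2:**
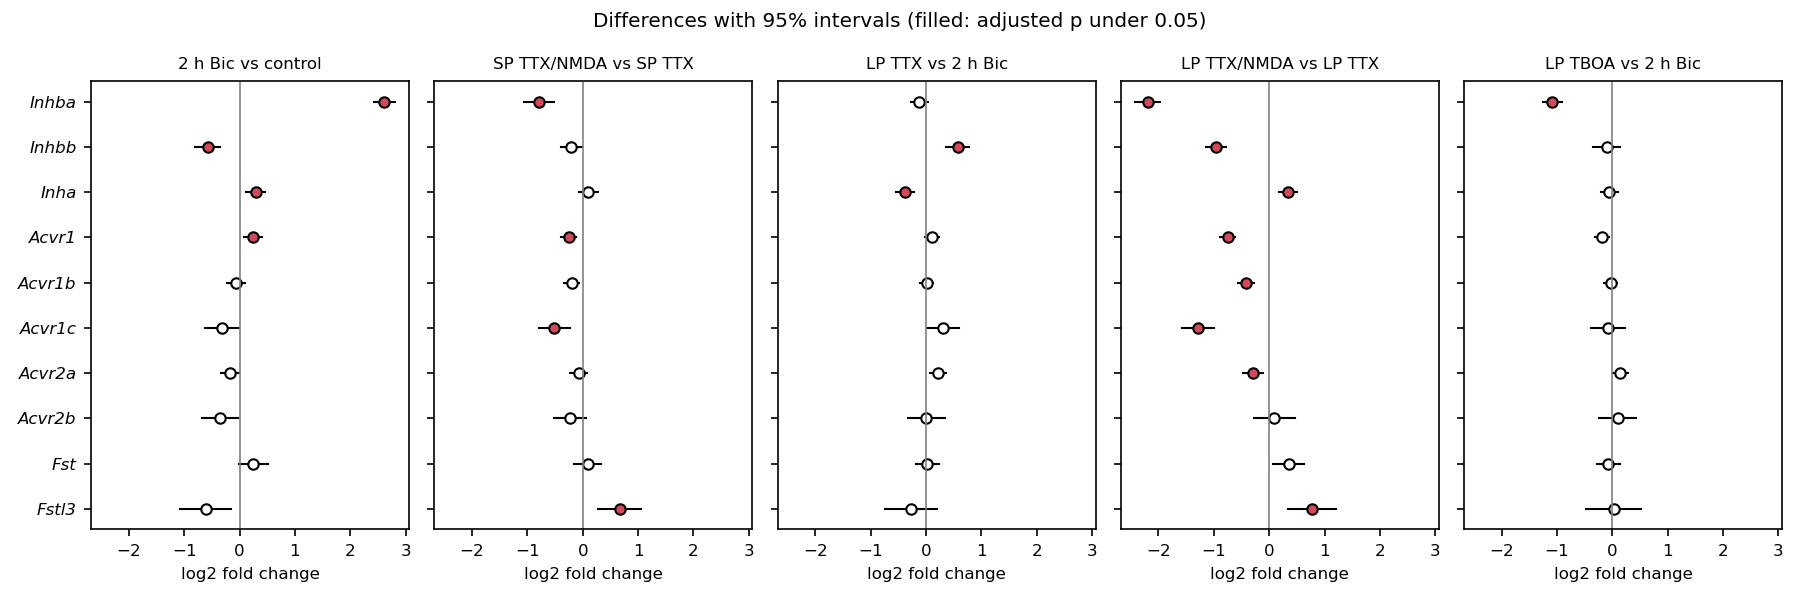
Log2 fold changes (horizontal axis) of the 10 members (rows) in 5 comparisons, with 95% intervals as lines, and filled points where the edgeR adjusted p was under 0.05. Inhba has the largest change of the members in 2 h Bic against control (2.61), in the active effect of the LP (−2.19) and in LP TBOA against 2 h Bic (−1.08), where it is the only filled point.

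Inhba was lower with TBOA than with 2 h Bic, the only member called for glutamate spillover. With LP TBOA, Inhba was 23.5, 20.1, 26.5, 24.1 and 18.2 CPM in preparations 1, 3, 6, 7 and 8, between the libraries of 2 h Bic and those of LP TTX/NMDA without overlap with either. Relative to 2 h Bic it fell by 52.7% (log2 fold change −1.08 ± 0.08, adjusted p = 4.1e-10), and 37.2% ± 7.42 (SD, n = 5) of the rise above the control was present. This was the call of 1 of 10 members where 0.602% of all genes were called, and the paired fit gave the same count (2.67% of all genes). The other 9 members had log2 fold changes between −0.18 and 0.15. The widest of their 95% intervals, that of Fstl3, reached from −0.48 to 0.52, and that of Acvr1b from −0.15 to 0.09. The intervals of Acvr1 (−0.31 to −0.05, lower in 5 of 5 preparations) and Acvr2a (0.0090 to 0.28, higher in 5 of 5) lay clear of no change. With Inhba, these were the 3 members with an unadjusted edgeR p under 0.05, but Acvr1 and Acvr2a were not called (adjusted p = 0.323 and 0.593). Inhbb with TBOA (19.7 ± 3.65 CPM) was at its level of 2 h Bic (21.2 ± 4.95 CPM), with an interval of the log2 difference from −0.34 to 0.13. The ratio of Inhba to Inhbb accordingly fell in 5 of 5 preparations, to 0.777 ± 0.159 per kb, and that of Inhba to Fst to 1.44 ± 0.277 (p = 0.0625 in each exact permutation test).

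**Figure D3:**
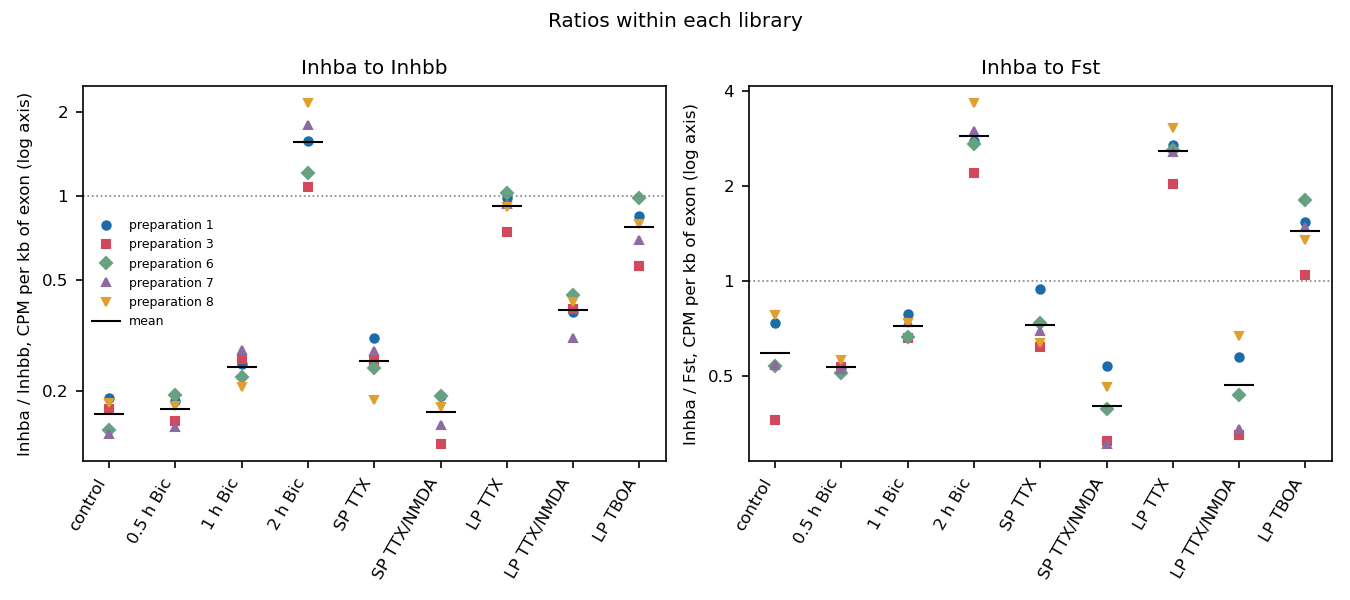
Ratios within each library of Inhba to Inhbb (left) and of Inhba to Fst (right), in CPM per kb of exon on a log axis, for 9 conditions, with 1 point for each of 5 preparations and a bar at the mean. Both ratios are highest after 2 h Bic (means 1.56 and 2.86). They are 0.92 and 2.58 with LP TTX, 0.777 and 1.44 with LP TBOA and 0.390 and 0.467 with LP TTX/NMDA. The dotted line marks equal levels.

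Total excitotoxic stimulation, TTX/NMDA against uninterrupted Bic, gave Inhba the largest fall of the members in both protocols. It fell by 79.8% in the LP (log2 fold change −2.30 ± 0.11, adjusted p = 1.6e-17) and fell by 38.5% in the SP (−0.70 ± 0.12, adjusted p = 2.0e-04). In the LP, 1 member was higher and 5 were lower, where 22.8% of all genes tested and 45.3% of those of at least 1 CPM were called. In the SP, only Inhba was called, where 4.3% of all genes were, while the paired fit called 5 members, all lower (27.3% of all genes). LP TTX/NMDA also left Inhba lower than TBOA did (log2 fold change −1.21 ± 0.12, adjusted p = 5.9e-10). That comparison called 1 member higher and 4 lower, where 16.6% of all genes tested and 33.4% of those of at least 1 CPM were called.

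All 3 type I receptor genes fell with NMDA in the LP. Acvr1 (chromosome 2, 58388644 to 58567157, minus strand), best known as a receptor for bone morphogenetic proteins, was 71.0, 75.6, 71.7, 73.7 and 72.4 CPM in preparations 1, 3, 6, 7 and 8 of LP TTX and 40.6, 43.3, 46.1, 43.3 and 45.8 CPM with LP TTX/NMDA. The groups stood far apart, and the level fell by 40.3% (log2 fold change −0.74 ± 0.07, adjusted p = 6.1e-10), to below every control library (52.2 to 59.97 CPM). Its active effect was also called in the SP (−0.25 ± 0.07, adjusted p = 0.0211, lost without preparation 1, 3 or 6), but was larger in the LP, with a difference of −0.48 ± 0.09 (interaction test, adjusted p = 5.6e-04). Acvr1 had risen slightly after 2 h Bic, from 56.1 ± 2.83 to 66.9 ± 4.51 CPM (log2 fold change 0.24 ± 0.08, adjusted p = 0.0362), a call that was lost without preparation 1, 6 or 7.

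Acvr1b (chromosome 15, 101174067 to 101213684, plus strand), the principal type I receptor of activin, was called in none of the comparisons of firing or silencing, with or without the preparation as a block. It was 136 ± 13.8 CPM in the control, 132 ± 6.90 CPM after 2 h Bic and 134 ± 4.96 CPM with LP TTX. With LP TTX/NMDA it was 104, 98.0, 96.0, 92.4 and 113 CPM in preparations 1, 3, 6, 7 and 8, each below every library of LP TTX (lowest 129 CPM). It fell by 25.1% (log2 fold change −0.42 ± 0.07, adjusted p = 1.6e-05). In the SP its active effect of −0.20 ± 0.07 did not pass the test (adjusted p = 0.086) and passed it in the paired fit (adjusted p = 0.0171). The difference between LP and SP of −0.20 ± 0.09 did not pass either (adjusted p = 0.290) and passed in the paired fit (adjusted p = 0.00436). The log2 fold change after 2 h Bic was −0.06, with a 95% interval from −0.22 to 0.10.

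Acvr1c (chromosome 2, 58267453 to 58357895, minus strand), a type I receptor that also serves Nodal and activin B, had the largest fall of the receptors. It was 6.22, 5.17, 7.98, 6.31 and 6.68 CPM with LP TTX and 2.22, 2.49, 3.06, 2.55 and 3.13 CPM with LP TTX/NMDA. The groups did not overlap with each other, nor the second with the control (5.48 to 8.16 CPM), and the level fell by 59.0% (log2 fold change −1.28 ± 0.14, adjusted p = 5.6e-08). In the SP it fell by 0.51 ± 0.14 on the log2 scale (adjusted p = 0.0214), a call lost without preparation 1, 3 or 7. The larger effect in the LP (a difference of −0.76 ± 0.20, adjusted p = 0.0310) was not called without preparation 1 or 6. In the annotation, 168 of its 9292 exon bases lie opposite exons of Gm13544, and reads were counted by strand.

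The type II receptors, which bind the ligand first, were each called in 1 comparison. Acvr2a (chromosome 2, 48814109 to 48903269, plus strand) was 120, 122, 113, 123 and 154 CPM in preparations 1, 3, 6, 7 and 8 of LP TTX and 88.5, 125, 110, 87.0 and 111 CPM with LP TTX/NMDA. The groups overlapped, and the level was higher with NMDA in preparation 3. The log2 fold change of −0.29 ± 0.09 was called (adjusted p = 0.0185), but not without preparation 1 or 7, nor over the genes that pass filterByExpr without the block. Over all 9 conditions its mean level varied by only 1.21-fold, the least of the members, between 104 and 126 CPM. The paired fit also called it lower in 2 h Bic than in the control (adjusted p = 0.0442) and in LP TTX/NMDA than in the control (adjusted p = 0.0265). Acvr2b (chromosome 9, 119402118 to 119434995, plus strand) lay between 2.46 and 3.502 CPM on average. It was called from 1 to 2 h Bic (log2 fold change −0.48 ± 0.14, adjusted p = 0.0436), lower in 5 of 5 preparations, but not when any 1 preparation was left out. In the paired fit this call was kept (adjusted p = 0.00397), and Acvr2b was also called lower in 2 h Bic than in the control (adjusted p = 0.0438). The ratio of Acvr2a to Acvr2b per kb was 26.9 ± 6.06 in the control, and none of its 5 comparisons moved one way in every preparation (lowest p = 0.1875 in the exact permutation test).

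Both antagonist mRNAs were higher with NMDA in 1 or more comparisons. Fst (chromosome 13, 114452290 to 114458951, minus strand) was 8.01, 14.3, 9.88, 10.3 and 7.55 CPM in preparations 1, 3, 6, 7 and 8 of the control and 11.1, 20.6, 21.6, 15.3 and 11.6 CPM with LP TTX/NMDA. It was higher in 5 of 5 preparations although the groups overlapped (log2 fold change 0.65 ± 0.16, adjusted p = 0.00218). It was also called higher than in 2 h Bic (0.38 ± 0.14, adjusted p = 0.0426) and in LP TBOA (0.47 ± 0.14, adjusted p = 0.0132). The first of these calls was lost without preparation 3 or 6 and the second without preparation 6. The active effect itself, 0.35 ± 0.14, did not pass the test (adjusted p = 0.0717) and passed it in the paired fit (adjusted p = 0.00197). Preparation 8 was below the mean of its condition in all 9 conditions, and preparation 6 above it in 8, for Fst. The astrocyte and fibroblast marker sums were higher in the same condition, as given above, and their part in this was not tested.

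Fstl3 (chromosome 10, 79777272 to 79782630, plus strand) was scarce, between 0.498 and 2.14 CPM in any library. It was 0.644, 0.926, 0.852, 0.701 and 0.595 CPM with LP TTX and 1.66, 1.26, 0.835, 1.34 and 1.16 CPM with LP TTX/NMDA in preparations 1, 3, 6, 7 and 8. Only preparation 6 did not rise, the log2 fold change was 0.77 ± 0.22 (adjusted p = 0.00794), and the call was lost without preparation 1. It was called higher for the active effect in the SP as well (0.66 ± 0.19, adjusted p = 0.0335), a call that held only when preparation 3 was the one left out. After 2 h Bic it was lower than after 1 h (−0.83 ± 0.21, adjusted p = 0.0102), without overlap between the groups, a call lost without preparation 7. In the annotation, 1157 of its 2445 exon bases lie opposite exons of Prss57.

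**Figure D4:**
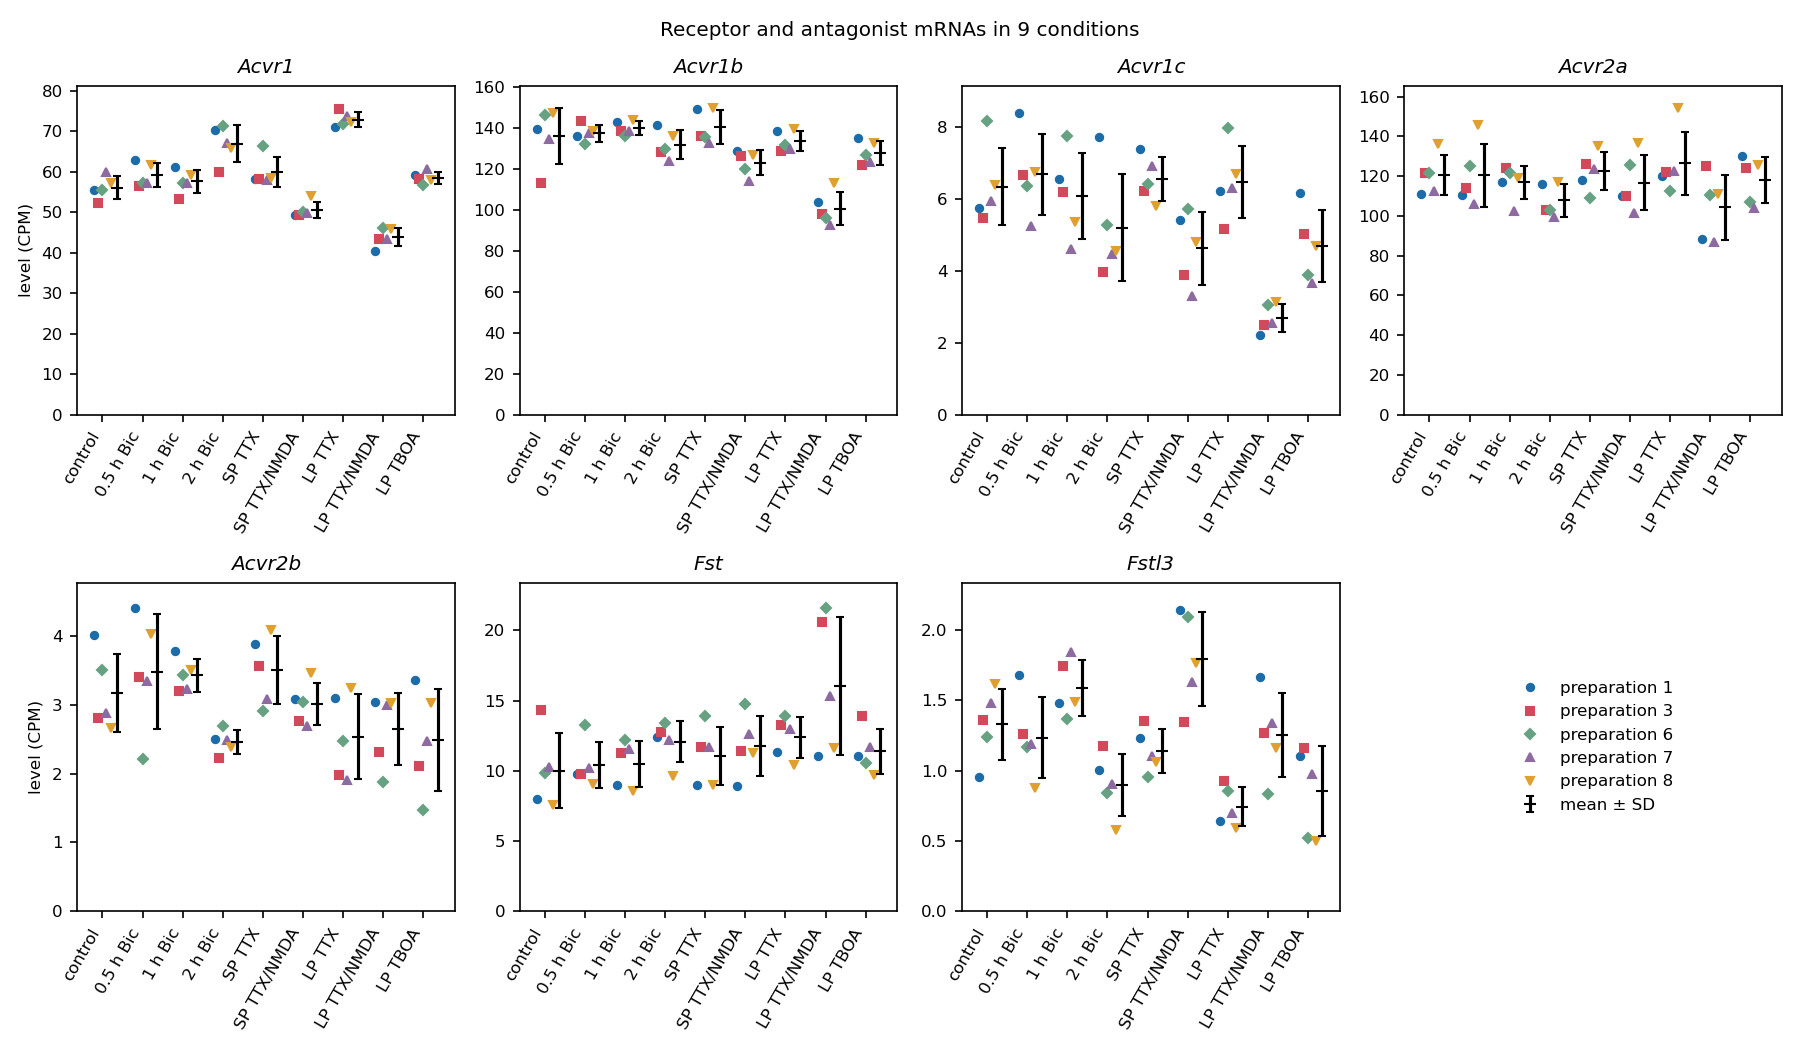
Levels of the 5 receptor and 2 antagonist genes in CPM (vertical axes, each from 0) in 9 conditions (horizontal axis), with 1 point for each of 5 preparations and the mean ± SD. Acvr1, Acvr1b and Acvr1c are lowest with LP TTX/NMDA (means 43.8, 101 and 2.69 CPM), where Fst is highest (16.03 CPM), and the Acvr2a libraries of most conditions overlap.

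Against untreated neurons, the LP TTX/NMDA condition had less of Inhbb and of all 3 type I receptors and more of Inha and Fst. This made 2 members higher and 4 lower, where 19.5% of all genes tested and 36.8% of those of at least 1 CPM were called. Acvr1c stood furthest from the control, at 0.415 times its level (log2 fold change −1.27 ± 0.16, adjusted p = 8.9e-08), and Acvr1, Acvr1b and Inhbb were lower in 5 of 5 preparations. The higher Inha (0.28 ± 0.09, adjusted p = 0.0226) did not pass the test without preparation 1, 6 or 7. The 5 preparations were a steady source of variation for several members. Acvr1b and Acvr2a were above the mean of the condition in all 9 conditions in preparation 8, and Acvr2b in preparation 1, while Inhbb was never above it in preparation 1 nor Inha in preparation 7.

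A list of 38 other genes of the pathway (other ligands, co-receptors, secreted antagonists, Smads, feedback regulators and convertases) was followed beside the members. After 2 h Bic, 6 of the 35 tested were higher and none lower by edgeR (13 and 0 at an unadjusted p under 0.05), with a median log2 fold change of 0.10 against −0.01 over all genes. In this comparison 9.02% of all genes tested and 18.6% of those of at least 1 CPM were called, and 8.18% of the latter were called higher. Smad7, the inhibitory Smad that is a target and a brake of the pathway, had the largest rise of the 6. It stood at 7.57, 8.20, 10.5, 10.2 and 9.37 CPM in the control, at 19.3, 14.9, 21.7, 19.8 and 23.2 CPM after 1 h and at 34.3, 27.99, 41.6, 29.4 and 30.7 CPM after 2 h, with no overlap between the 3 times. Its log2 fold change after 2 h was 1.81 ± 0.11 (adjusted p = 2.9e-15). Pmepa1, another feedback inhibitor, rose from 22.8 ± 3.41 to 34.1 ± 3.30 CPM, and Bambi, a decoy receptor that lacks a kinase domain, from 2.87 ± 0.902 to 4.65 ± 1.16 CPM. Tgif1, a nuclear co-repressor, rose from 1.30 ± 0.419 to 2.13 ± 0.491 CPM. Skil and Ski, which repress Smad targets, made up the 6.

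For the active effect in the LP, 5 of the 37 tested were higher and 13 lower, with a median log2 fold change of −0.06. With 23.3% of all genes tested and 46.9% of those of at least 1 CPM called, this count is near the background and is not a result about the list. Skil fell from 130 ± 7.55 to 64.9 ± 9.89 CPM (log2 fold change −1.01 ± 0.08, adjusted p = 9.4e-11), and 3 of its 5 libraries lay below every control library (lowest 66.2 CPM). Ski fell from 268 ± 12.1 to 189 ± 8.41 CPM and Smad3, which carries the signal to the nucleus, from 25.02 ± 1.21 to 17.6 ± 1.77 CPM. Pcsk5, a convertase that cleaves precursors of secreted proteins, fell from 41.8 ± 1.78 to 29.1 ± 2.37 CPM. Of the 6 genes of Smads and their anchor, 5 were lower and Smad6, an inhibitory Smad, was higher (0.225 ± 0.126 to 0.544 ± 0.342 CPM), where 26.9% of genes of at least 1 CPM were called lower and 20% higher. Also higher were Bambi (3.36 ± 0.462 to 5.77 ± 0.879 CPM), Tgif2, a repressor related to Tgif1 (1.36 ± 0.612 to 2.51 ± 0.968 CPM), and Wfikkn1, a secreted antagonist of related ligands (0.247 ± 0.0641 to 0.634 ± 0.200 CPM). Smad6 and Wfikkn1 averaged 0.296 and 0.376 CPM over all libraries, below the cut of that background, and were measured imprecisely. The Smad6 libraries overlapped (0.027 to 0.342 against 0.209 to 0.938 CPM), and those of Wfikkn1 did not (edgeR adjusted p = 0.0250 and 0.00170).

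Smad7 was lower with LP TTX than with uninterrupted Bic, and at its level of 1 h Bic (20.1 ± 1.89 against 19.8 ± 3.17 CPM). Its passive effect in the LP was −0.72 ± 0.09 on the log2 scale (adjusted p = 2.6e-06), and its active effect there was −0.31 ± 0.11 (adjusted p = 0.0393). In the SP it fell by 0.83 ± 0.10 with NMDA (adjusted p = 3.8e-07), from 16.9 ± 1.78 to 9.55 ± 1.07 CPM. It was the only gene of the list called with TBOA (−0.58 ± 0.08, adjusted p = 7.1e-05), where 0.602% of all genes were. Skil was higher with LP TTX than with 2 h Bic (0.39 ± 0.07, adjusted p = 1.8e-04), and these 2 were the list's only calls for the passive effect in the LP (4.65% of all genes). The other genes of the list are given by their counts, with 1 higher and 5 lower of 36 for the active effect in the SP, where 4.28% of all genes tested and 9.54% of those of at least 1 CPM were called.

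**Figure D5:**
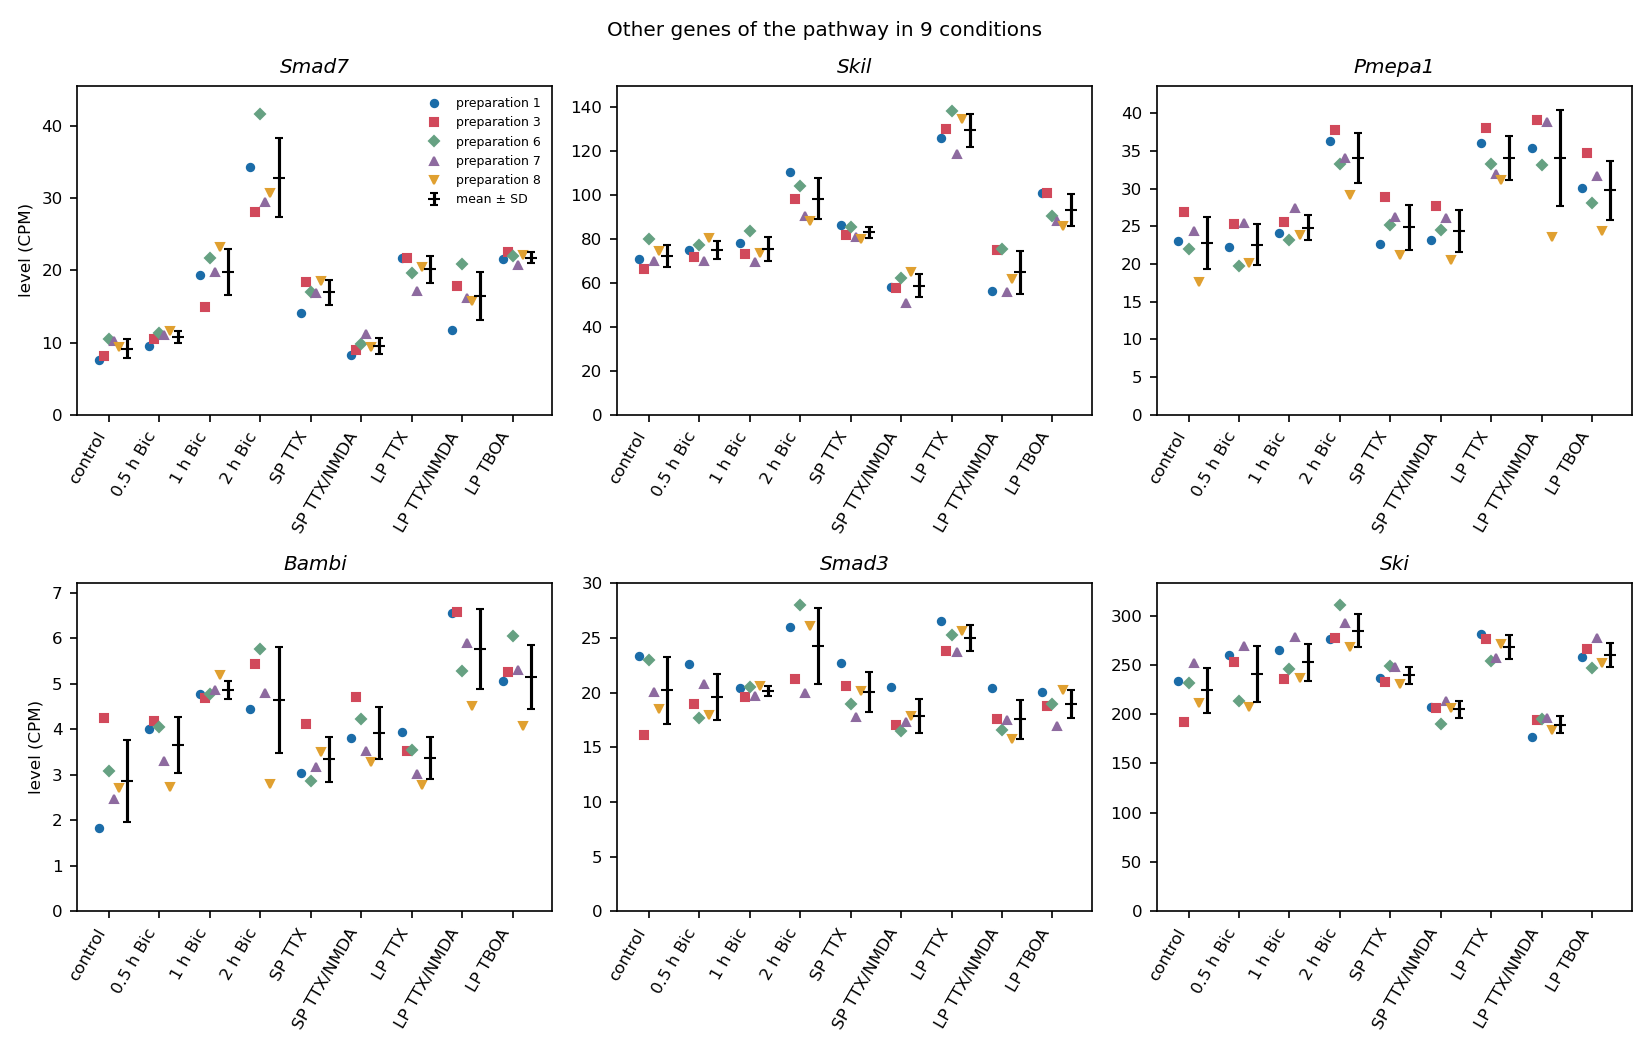
Levels of 6 other genes of the pathway in CPM (vertical axes, each from 0) in 9 conditions (horizontal axis), with 1 point for each of 5 preparations and the mean ± SD. Smad7 rises to 32.8 CPM after 2 h Bic and is 20.1 CPM with LP TTX, while Skil is highest with LP TTX (130 CPM) and at 64.9 CPM with LP TTX/NMDA.

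The genes whose profile over the 9 condition means was most like that of Inhba, among 272 genes with a mean of at least 1 CPM and an SD of the means of at least 0.5 (log2), were Ism1, Lnx2, Sntb2, Frmd6 and Peli1. Their Pearson correlations with Inhba over the 9 means ranged from 0.988 to 0.993, and all means come from the same 45 libraries and treatments. Ism1, which encodes the secreted protein isthmin, stood at 4.84 CPM in the control, 14.7 CPM after 2 h Bic, 16.3 CPM with LP TTX, 5.48 CPM with LP TTX/NMDA and 10.1 CPM with TBOA. Frmd6, whose log2 means varied most of these 5 (SD 1.047), stood at 9.33 CPM in the control, 55.6 CPM after 2 h Bic and 15.6 CPM with LP TTX/NMDA. Acvr1c, the member with the next most variable profile, was most like 5330416C01Rik, Sstr4 (a somatostatin receptor), Chrm5 (a muscarinic acetylcholine receptor), Gm10754 and Adamts3 (a secreted metalloprotease) among 273 genes, with correlations from 0.914 to 0.979. Adamts3 stood at 40.6 CPM in the control, 40.7 CPM with LP TTX and 11.9 CPM with LP TTX/NMDA. These likenesses are descriptions over 9 points.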

How the data were processed

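The authors prepared stranded poly-A libraries from hippocampal cultures of 5 preparations, sequenced them single-end on an Illumina instrument and, per the methods and the submitters' processing notes, used bcl2fastq 2.20.0.422, STAR 2.5.4b (genome GRCm38, Ensembl annotation) and featureCounts 1.6.5 with strand, leaving out reads with more than 1 alignment or more than 1 gene. The deposited values are raw counts per gene, and replicates were not pooled. Reads of a gene that resembles another could therefore be lost, and no correction for length was made.

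Genes were matched by Ensembl ID to GENCODE M21 (54409 of 54532 IDs), which also gave coordinates and exon lengths. Members and lists were chosen with earlier results of these data known. Every member is named. Genes of the pathway list are named where they were called in LP TTX/NMDA vs LP TTX or in 2 h Bic vs control with an absolute log2 fold change of at least 0.5, or to complete a small count.

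Each comparison was fitted with edgeR 4.0.16 (R 4.3.3, TMM normalization, quasi-likelihood test) on the libraries of its conditions alone, over every gene that had 1 or more reads there, with Benjamini-Hochberg adjusted p-values over all genes and a threshold of 0.05. All 10 members passed this filter in every comparison. Errors of log2 fold changes are SE. The scripts were tested on simulated data. Alternatives were filterByExpr, DESeq2 size factors, the DESeq2 Wald test (DESeq2 1.42.0), a fit over all 45 libraries, leaving out each preparation, and the preparation as a block with filterByExpr (the paired fit). Each label holds a number, taken here as the preparation because the study defines each culture preparation as 1 replicate. Equal numbers thus pair the libraries. Their deviations from condition means correlated with a mean r of 0.436 over 180 pairs of conditions and preparations and 13592 genes (range −0.298 to 0.776). Ratios were taken within libraries from counts plus 0.5. Levels used TMM over the 45 libraries, whose totals ran from 11316580 to 81129276 counts, so low genes such as Fstl3 rest on few reads. Separate preparations are biological replicates of the culture, not of animals. Promoter windows are from RefSeq (GRCm38.p6), and no protein sequences were used here.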

Additional observations from a re-analysis of the deposited data

Results flagged for a closer look

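In 9 of 90 member-by-condition groups of 5 libraries, 1 library stood apart from the other 4 by Dixon's criterion, which chance alone meets in about 1 in 20 groups. For Inhba these were preparation 6 after 0.5 h Bic at 9.43 CPM (others 7.11 to 7.48) and preparation 3 after 2 h Bic at 38.98 CPM (others 48.0 to 50.7). For Inhbb they were preparation 6 after 1 h Bic at 33.3 CPM (others 26.1 to 28.1), preparation 6 with SP TTX at 38.8 CPM (others 25.3 to 28.2) and preparation 1 with LP TTX at 28.8 CPM (others 32.1 to 33.4). For Acvr1 they were preparation 6 with SP TTX at 66.5 CPM (others 58.0 to 58.6) and preparation 8 with SP TTX/NMDA at 53.9 CPM (others 49.4 to 50.1). Acvr2a in preparation 8 with LP TTX stood at 154 CPM (others 113 to 123), and Fst in preparation 6 after 0.5 h Bic at 13.3 CPM (others 9.10 to 10.2). Preparation 6 accounts for 5 of the 9.

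The active effect of NMDA differed between the LP and the SP for 4 members by the interaction test without the block, with a larger fall in the LP for each. The difference was −1.39 for Inhba, −0.74 for Inhbb, −0.76 for Acvr1c and −0.48 for Acvr1 on the log2 scale. Duration of NMDA (0.5 against 1 h) and of Bic before it changed together between the protocols and cannot be told apart.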

How the results depend on the processing

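Over 1600 values of single members under the alternatives, 1507 kept their direction and their side of the threshold, 51 lost and 42 gained a call, and no call reversed. With the preparation as a replicate block over filterByExpr genes, 7 members were called after 2 h Bic (4 without), 5 in SP TTX/NMDA vs 1 h Bic (1 without), 5 in LP TTX vs 2 h Bic (2 without) and 1 for the difference in passive effect (0 without, by edgeR). SP TTX/NMDA vs 1 h Bic had 3 by filterByExpr alone and 3 by the DESeq2 Wald test. Other comparisons gained calls with the block as well, among them LP TTX/NMDA vs control (8, against 6 without) and the difference in active effect (5, against 4). The paired fit also called a larger share of all genes wherever that share is given above. The single call in 1 h vs 0.5 h Bic (Inhba) was lost with filterByExpr, DESeq2 size factors and all 45 libraries (0 each), and that in 1 h Bic vs control with all 45 libraries (0). Leaving out 1 preparation gave 0 to 1 calls in 1 h Bic vs control and in 1 h vs 0.5 h Bic, 2 (without preparation 6) to 5 in 2 h Bic vs control, 2 (without 7) to 4 in 2 h vs 1 h Bic, 1 (without 1) to 3 in SP TTX/NMDA vs SP TTX, 1 to 2 (without 8) in SP TTX/NMDA vs 1 h Bic, 2 to 4 (without 1) in LP TTX vs 2 h Bic and 0 to 1 (without 6) for the difference in passive effect. The cause of these shifts was not tested. The log2 ratio of Acvr2a to Acvr2b, which had no call, changed sign when a preparation was left out, from −0.12 (without 6), through −0.02 (without 3), to 0.18 in LP TTX/NMDA vs control (0.05 with all) and from −0.016 (without 6) to 0.27 in LP TBOA vs 2 h Bic (0.17 with all). Depth limits Fstl3 and Acvr2b most, with as few as 6 and 17 reads in a library.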
